A study of Mus musculus with 9 samples.

Results

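The genes described here are 10 that encode costimulatory and checkpoint molecules of T cells. They comprise the receptors Ctla4, Icos, Cd28, Pdcd1, Havcr2 and Lag3 and the ligands Cd274, Pdcd1lg2, Cd80 and Cd86. Every probe set of the array whose only gene symbol in the platform annotation was one of these names was taken, which gave 10 of 18194 genes with such a probe set and 17 of 45101 probe sets. No measured value entered that choice of probe sets, but the genes themselves were chosen with earlier results of these data known. Lungs of female C57BL/6 mice aged 14 weeks were analysed 14 days after a replication-deficient adenovirus had been put into the trachea, with 1 array per mouse and 3 mice per virus. AdV-IL4 carried mouse IL-4, AdV-IL4d2 carried an alternatively spliced form of it, mouse IL-4d2, and AdV-NULL carried no cytokine gene and is the control. All 9 mice thus received adenovirus, no uninfected mouse is among them, and the labels do not say which promoter drove the cytokine genes. The comparisons ask whether either cytokine form changed these transcripts in whole lung and whether the forms differed.

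T cells need a second signal beside that of the antigen receptor. CD28 gives it when it binds CD80 or CD86 on antigen-presenting cells, and CTLA-4 competes for the same ligands and restrains the response. ICOS, a relative of CD28, is induced on activated T cells and supports follicular and type 2 helper responses. PD-1, encoded by Pdcd1, is an inhibitory receptor bound by PD-L1 (Cd274), which many cell types make, and PD-L2 (Pdcd1lg2), which is made mainly by dendritic cells and macrophages and is known to be inducible by IL-4 through STAT6. Havcr2 encodes TIM-3, found on T cells and also on myeloid cells, and Lag3 encodes a receptor for MHC class II molecules.

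The deposited linear signals had array medians between 156 and 171. The bacterial trpn control transcript, a negative control, ran from 0.987 to 55.8. Il4, which both cytokine viruses carried, had signals of 379, 301 and 335 on the AdV-IL4 arrays and 1172, 944 and 499 on the AdV-IL4d2 arrays, against 43.1, 15.8 and 71.6 on the AdV-NULL arrays, so it was higher wherever the virus carried it. The lung markers Sftpc and Scgb1a1 averaged 35811 ± 2723 and 51840 ± 4955 with AdV-IL4, 30785 ± 809 and 43196 ± 2487 with AdV-IL4d2, and 31282 ± 8568 and 41693 ± 11378 with AdV-NULL (SD, n = 3 each). Heart and skeletal muscle transcripts differed between the viruses as well as between single arrays. Their summed signal over 7 genes ran from 1442 to 5454 with AdV-IL4 and from 4872 to 15522 with AdV-IL4d2. With AdV-NULL it ran from 11788 to 69859, so every AdV-IL4 sum lay below every AdV-NULL sum. Of the 7 genes, 6 were called lower with AdV-IL4 and 0 with AdV-IL4d2 (limma adjusted p under 0.05). Among all tested probe sets 5.08% and 0.390% were called lower. The ratio of 3′ to 5′ Gapdh probe signal, a sign of RNA integrity, was 1.80, 1.78 and 1.55 with AdV-IL4 and 1.57, 1.35 and 1.47 with AdV-IL4d2, against 0.955, 1.45 and 1.44 with AdV-NULL. The part of these differences in the results was not tested. Because these are whole lungs, more cells of a type and more RNA per cell cannot be told apart. Among all probe sets tested, limma called 10.7% for AdV-IL4 against AdV-NULL, 1.32% for AdV-IL4d2 against AdV-NULL and 1.75% for AdV-IL4 against AdV-IL4d2, each at a Benjamini-Hochberg adjusted p under 0.05.

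With AdV-IL4, transcripts of Ctla4, Icos, Havcr2, Pdcd1lg2 and Cd86 rose against AdV-NULL. With AdV-IL4d2 Ctla4 rose to a similar level, and Icos did on 1 of its probe sets. Pdcd1lg2 was called higher with AdV-IL4 than with AdV-IL4d2 among the tested probe sets, a call that was lost with no filter on dim probe sets. Of the 10 genes, each represented by its brightest probe set, 7 passed the filter on dim probe sets. Pdcd1, Lag3 and Cd80 did not. Of the tested members 5 were called higher and 0 lower with AdV-IL4, where 5.60% of all tested probe sets were called higher. Called lower were 5.08% of them. With AdV-IL4d2 1 was called higher and 0 lower, where 0.928% and 0.390% of all probe sets were, and for AdV-IL4 against AdV-IL4d2 1 was called higher and 0 lower, where 0.911% and 0.835% were. A moderated F test over the 3 groups called 3 members, Ctla4, Icos and Pdcd1lg2, where 7.77% of tested probe sets were called. The filter favours genes that were bright in some group. Ctla4 passed it on the 6 cytokine arrays and Pdcd1lg2 on the 3 AdV-IL4 arrays. With no filter, all 10 genes and 45037 probe sets were tested. The counts were then 5, 1 and 0, against 2.28%, 0.346% and 0.306% of probe sets called higher. For AdV-IL4 against AdV-NULL some of these calls passed only narrowly. They were Cd86 (limma adjusted p = 0.0462), Havcr2 (adjusted p = 0.0471) and Pdcd1lg2 (adjusted p = 0.0499). The difference lay above 0 for 10, 9 and 7 of the 10 genes, as for 51.1%, 49.5% and 51.2% of all probe sets. Every array of the first-named virus lay above every array of the other for 6, 4 and 4 genes, as for 10.8%, 8.18% and 9.02% of probe sets. The median log2 difference over all 10 genes was 0.67 for AdV-IL4 against AdV-NULL, 0.53 for AdV-IL4d2 against AdV-NULL and 0.34 for AdV-IL4 against AdV-IL4d2, where the medians over all 45037 probe sets were 0.0098, -0.0031 and 0.0085. Both comparisons against AdV-NULL use the same 3 control arrays.

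**Figure D1:**
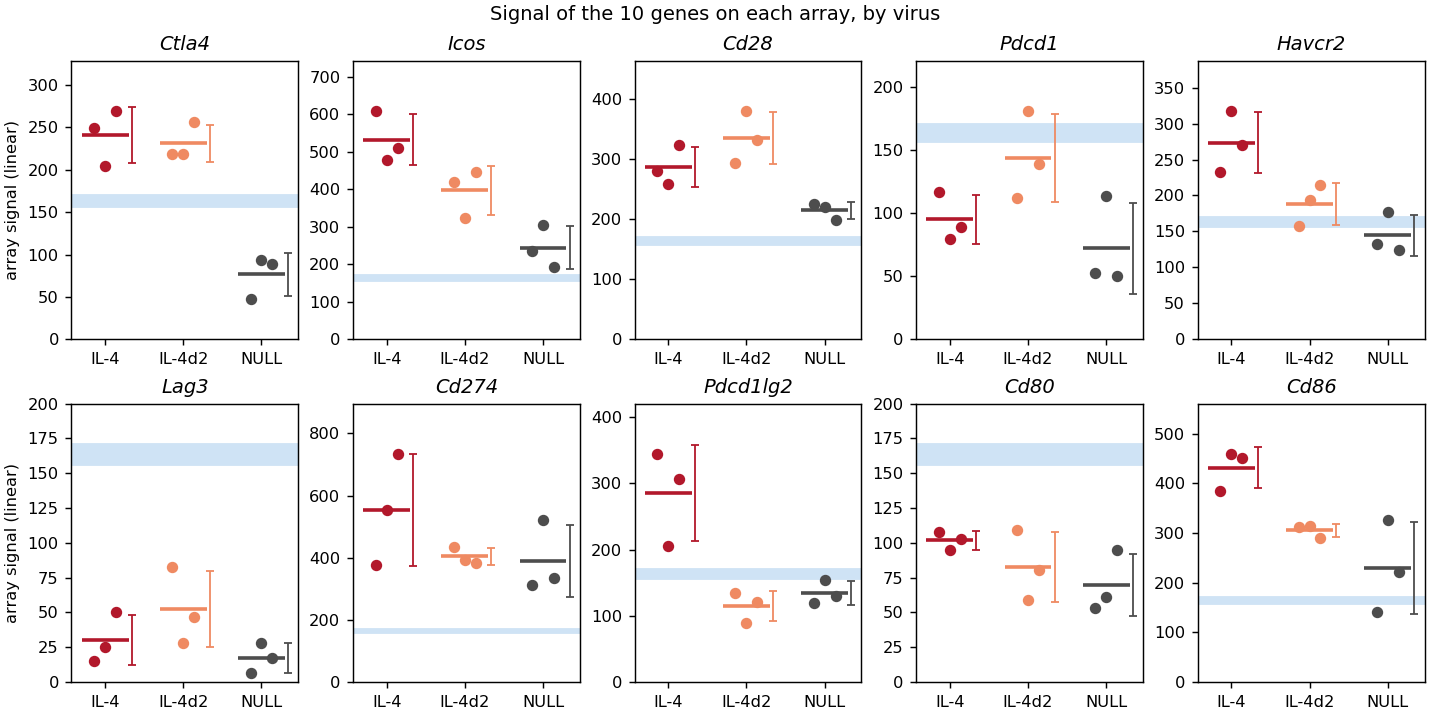
Array signal (linear) of the brightest probe set of each of the 10 genes, 1 point per mouse, in AdV-IL4, AdV-IL4d2 and AdV-NULL lungs. Horizontal lines are means, whiskers are SDs over 3 mice, and the shaded band spans the 9 array medians. Ctla4 lies above the band on the 6 cytokine arrays and below it on the 3 AdV-NULL arrays, Pdcd1lg2 lies above it on the 3 AdV-IL4 arrays alone, and Lag3 and Cd80 lie below it on all 9.

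Ctla4, the inhibitory receptor for CD80 and CD86, had signals of 249, 204 and 269 on the AdV-IL4 arrays and 218, 218 and 257 on the AdV-IL4d2 arrays, against 47.5, 93.8 and 88.4 on the AdV-NULL arrays. Every cytokine array lay above every control array, and the cytokine groups overlapped each other. The log2 difference, taken here and below on log2(signal + 16), was 1.51 ± 0.25 (SE) for AdV-IL4 against AdV-NULL, or 2.84-fold (limma adjusted p = 0.00293). It was 1.45 ± 0.25 for AdV-IL4d2 against AdV-NULL, or 2.74-fold (adjusted p = 0.0114). The AdV-IL4d2 call was lost without AdV-IL4d2 mouse 3 (1.38, adjusted p = 0.0737), while the AdV-IL4 call was kept in each of the 9 fits with 1 array left out. AdV-IL4 and AdV-IL4d2 differed by 0.05 (95% interval -0.48 to 0.59, adjusted p = 0.945), so differences of up to 0.59 remain possible. The lowest control signal lies within the range of the trpn negative control.

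Icos, the inducible costimulator, was read by 3 probe sets. On the brightest, 1421930_at, it had signals of 608, 478 and 511 with AdV-IL4 and 421, 324 and 448 with AdV-IL4d2, against 237, 305 and 193 with AdV-NULL. The 3 groups did not overlap and fell in the order AdV-IL4, AdV-IL4d2, AdV-NULL. It rose 2.12-fold with AdV-IL4 (log2 difference 1.09 ± 0.18, adjusted p = 0.00314). The difference with AdV-IL4d2 was 0.67 ± 0.18 (adjusted p = 0.0971) and that between the forms 0.41 (95% interval 0.02 to 0.80, adjusted p = 0.277), and neither passed the test. The next probe set, 1436598_at, gave a different order. Its signals were 436, 447 and 412 with AdV-IL4 and 375, 431 and 410 with AdV-IL4d2, against 149, 211 and 152 with AdV-NULL. There Icos rose both with AdV-IL4 (1.28 ± 0.15, adjusted p = 0.000439) and with AdV-IL4d2 (1.19 ± 0.15, adjusted p = 0.00172), and the forms differed by 0.09 (95% interval -0.25 to 0.42). These last calls were kept in each of the 9 fits with 1 array left out. The dimmest, 1421931_at, was above the array median on 2 arrays only and was not tested.

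Cd28, the receptor that starts costimulation, was read by a pair of probe sets that disagreed on the order of the cytokine forms. On the brighter, 1417597_at, it had signals of 280, 258 and 323 with AdV-IL4 and 294, 379 and 331 with AdV-IL4d2, against 225, 221 and 199 with AdV-NULL. All 6 cytokine arrays were above the 3 control arrays, yet the log2 differences of 0.39 ± 0.15 with AdV-IL4 (adjusted p = 0.134) and 0.60 ± 0.15 with AdV-IL4d2 (adjusted p = 0.0872) did not pass the test. On the dimmer, 1437025_at, it rose with AdV-IL4 (0.94 ± 0.27, adjusted p = 0.0456), and that call was kept only in the fit without AdV-NULL mouse 3, among the 9 with 1 array left out. That probe set passed the filter on 4 arrays, all with a cytokine virus, and with no filter the call was lost (adjusted p = 0.0852). The difference with AdV-IL4d2 there was 0.54 ± 0.27 (adjusted p = 0.396). AdV-IL4 minus AdV-IL4d2 was -0.21 on the brighter and 0.40 on the dimmer probe set, neither past the test (adjusted p = 0.538 and 0.498).

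Havcr2, which encodes TIM-3, had signals of 232, 317 and 270 with AdV-IL4 and 157, 194 and 214 with AdV-IL4d2, against 132, 178 and 124 with AdV-NULL. The AdV-IL4 arrays lay above all others, and the AdV-IL4d2 and AdV-NULL arrays overlapped. It rose 1.80-fold with AdV-IL4 (0.85 ± 0.21, adjusted p = 0.0220). The differences of 0.35 with AdV-IL4d2 (adjusted p = 0.480) and of 0.50 between the forms (95% interval 0.05 to 0.95, adjusted p = 0.250) did not pass. The AdV-IL4 call was lost without AdV-IL4 mouse 2 (0.74), AdV-IL4 mouse 3 (0.85), AdV-NULL mouse 1 (0.80) or AdV-NULL mouse 3 (0.76).

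Pdcd1, which encodes PD-1, and Lag3 were dim. Pdcd1 had signals of 117, 79.5 and 89.2 with AdV-IL4 and 112, 180 and 139 with AdV-IL4d2, against 52.6, 113 and 50.1 with AdV-NULL, and passed its array's median on 1 of 9 arrays. Lag3 had signals of 14.9, 25.3 and 49.96 with AdV-IL4 and 82.4, 28.2 and 46.5 with AdV-IL4d2, against 6.36, 28.1 and 17.5 with AdV-NULL, mostly within the range of the trpn control. Both had their highest array and their highest mean with AdV-IL4d2. With no filter the differences for AdV-IL4d2 against AdV-NULL were 0.91 for Pdcd1 (95% interval 0.18 to 1.64, adjusted p = 0.350) and 1.02 for Lag3 (95% interval 0.09 to 1.94, adjusted p = 0.429). For AdV-IL4 against AdV-NULL they were 0.39 (adjusted p = 0.620) and 0.45 (adjusted p = 0.662). None of these differences passed at an adjusted p under 0.05. Both AdV-IL4d2 intervals, which are not adjusted for the number of probe sets, lay above 0. For Lag3 the lowest AdV-IL4d2 signal (28.2) lay just above the highest AdV-NULL signal (28.1).

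**Figure D2:**
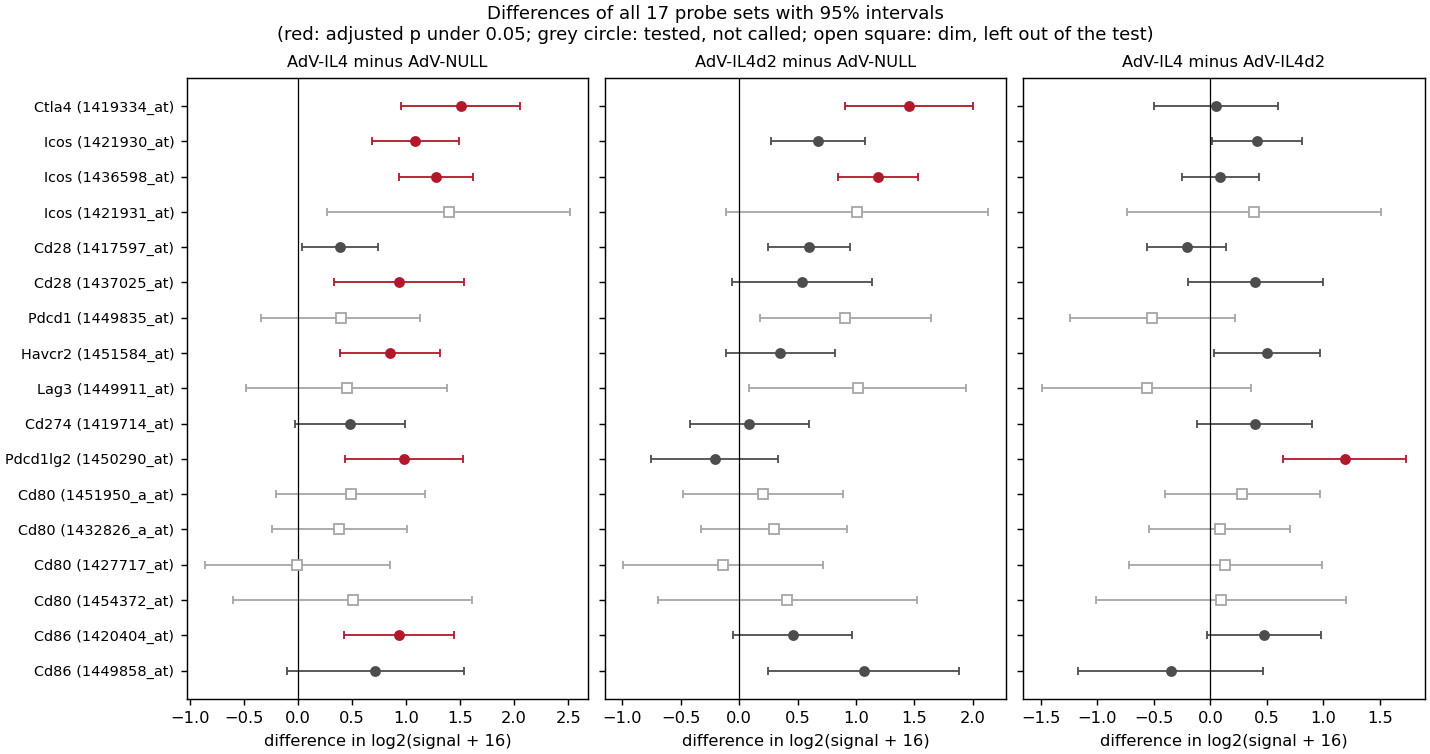
Differences in log2(signal + 16) of all 17 probe sets for AdV-IL4 minus AdV-NULL, AdV-IL4d2 minus AdV-NULL and AdV-IL4 minus AdV-IL4d2, with 95% intervals from the limma fit to all 45037 probe sets. Colours give the calls among the 23824 tested probe sets, and open squares mark probe sets left out as dim. Ctla4 and Icos 1436598_at are called in both comparisons against AdV-NULL, and Pdcd1lg2 is called in the first and last panels.

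Among the ligands, Pdcd1lg2 and Cd274 encode the partners of PD-1 and lie next to each other on chromosome 19. Pdcd1lg2 had signals of 345, 205 and 307 with AdV-IL4 and 135, 89.6 and 120 with AdV-IL4d2, against 119, 154 and 130 with AdV-NULL. The AdV-IL4 arrays stood above all 6 others, and the AdV-IL4d2 and AdV-NULL arrays overlapped. It rose 1.97-fold with AdV-IL4 (0.98 ± 0.24, adjusted p = 0.0244), and the difference with AdV-IL4d2 was -0.21 ± 0.24 (adjusted p = 0.755). It was 2.28-fold higher with AdV-IL4 than with AdV-IL4d2 (1.19 ± 0.24, 95% interval 0.66 to 1.72, adjusted p = 0.0324). Both calls were near the threshold. The first was lost without AdV-IL4 mouse 1 (0.84), AdV-IL4 mouse 3 (0.92), AdV-NULL mouse 1 (0.91) or AdV-NULL mouse 3 (0.96). The second was lost without AdV-IL4 mouse 1 (1.05) or 3 (1.13) or any AdV-IL4d2 mouse (1.04 to 1.30), and with no filter on dim probe sets (adjusted p = 0.0659). Both were also lost with scaling to the bacterial hybridisation controls, where Pdcd1lg2 had a difference of 0.57 for AdV-IL4 against AdV-NULL (adjusted p = 0.160) and of 0.72 for AdV-IL4 against AdV-IL4d2 (adjusted p = 0.0673). In each of these fits the difference stayed above 0.

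Cd274 had signals of 375, 553 and 734 with AdV-IL4 and 436, 392 and 384 with AdV-IL4d2, against 312, 521 and 335 with AdV-NULL. The 3 groups overlapped, and the spread was widest with AdV-IL4. Its log2 differences were 0.48 for AdV-IL4 against AdV-NULL (95% interval -0.02 to 0.98, adjusted p = 0.212), 0.09 for AdV-IL4d2 against AdV-NULL (-0.41 to 0.58, adjusted p = 0.907) and 0.39 for AdV-IL4 against AdV-IL4d2 (-0.11 to 0.89, adjusted p = 0.426). None passed the test. Whether Pdcd1lg2 and Cd274 differed from each other in their response was not tested.

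RefSeq promoter sequence, on build GRCm38.p6, was at hand for 6 of the 10 genes, as windows of 300 bases that run from 250 before to 50 after the gene's start. They were searched on both strands for the palindromic STAT6 motif (TTC and GAA with any 4 bases between). The related STAT motif (TTC and GAA with any 3 bases between) was searched too. Also searched were the AP-1-like pattern TGANTCA, where N is any base, and the NFAT core TTTCCA. The last was the kappaB motif (GGG and TTTCC with any 2 bases between). The STAT6 motif was found in the Pdcd1lg2 window, beginning 82 bases before the start, and in none of the windows of Ctla4, Cd274, Pdcd1, Havcr2 and Cd80. Of all 32851 RefSeq windows of that length, 6.95% hold it. The AP-1-like pattern, loose because any middle base was allowed, is in 7.81% of all windows. It was found for Havcr2 and Cd80, in both as TGATTCA. The NFAT core, in 21.4%, was found for Ctla4. The other motifs, in 8.30% and 1.63% of all windows, were found for none of the 6. A match is a description of letters and not a measured binding site. Shown are the windows of Pdcd1lg2, called between the cytokine forms in the filtered fit, of its neighbour Cd274, which passed no test, and of Ctla4, called with both forms, with bases matching a STAT motif in capitals. The windows lie on the plus strand at chr19:29410669-29410968, chr19:29367188-29367487 and chr1:60908775-60909074.
Pdcd1lg2: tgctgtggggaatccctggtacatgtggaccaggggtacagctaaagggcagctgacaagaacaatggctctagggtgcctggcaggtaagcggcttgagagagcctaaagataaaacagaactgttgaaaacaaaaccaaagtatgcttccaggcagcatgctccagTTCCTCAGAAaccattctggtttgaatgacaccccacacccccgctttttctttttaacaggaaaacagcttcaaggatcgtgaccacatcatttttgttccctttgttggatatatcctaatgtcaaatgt
Cd274: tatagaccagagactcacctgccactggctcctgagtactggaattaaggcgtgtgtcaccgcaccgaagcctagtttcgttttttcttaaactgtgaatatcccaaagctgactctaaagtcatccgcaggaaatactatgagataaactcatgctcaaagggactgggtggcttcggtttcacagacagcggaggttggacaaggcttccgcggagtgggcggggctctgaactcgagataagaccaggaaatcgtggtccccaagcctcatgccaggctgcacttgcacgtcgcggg
Ctla4: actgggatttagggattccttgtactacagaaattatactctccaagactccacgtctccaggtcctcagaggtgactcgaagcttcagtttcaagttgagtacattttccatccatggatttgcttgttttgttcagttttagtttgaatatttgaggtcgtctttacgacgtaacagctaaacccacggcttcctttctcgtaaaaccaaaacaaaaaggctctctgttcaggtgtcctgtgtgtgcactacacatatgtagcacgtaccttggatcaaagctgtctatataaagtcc

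Cd80 and Cd86 encode the ligands shared by CD28 and CTLA-4. Cd86 had signals of 384, 459 and 452 with AdV-IL4 and 312, 314 and 290 with AdV-IL4d2, against 142, 326 and 222 with AdV-NULL on its brighter probe set, 1420404_at. The AdV-IL4 arrays lay above all others, while control mouse 2 exceeded the 3 AdV-IL4d2 mice. It rose 1.91-fold with AdV-IL4 (0.93 ± 0.23, adjusted p = 0.0225), and the differences with AdV-IL4d2 (0.46, adjusted p = 0.390) and between the forms (0.47, 95% interval -0.02 to 0.97, adjusted p = 0.323) did not pass. The call was lost without AdV-IL4 mouse 2 (0.89), AdV-IL4 mouse 3 (0.90), AdV-NULL mouse 1 (0.65) or AdV-NULL mouse 3 (0.94), and in a fit of the AdV-IL4 and AdV-NULL arrays alone (adjusted p = 0.0531). The dimmer probe set, 1449858_at, had its highest mean with AdV-IL4d2, 193 ± 50.5, with 148 ± 41.8 in AdV-IL4 and 90.3 ± 47.8 in AdV-NULL lungs (SD, n = 3 each). Its differences against AdV-NULL were 1.07 with AdV-IL4d2 (adjusted p = 0.202) and 0.71 with AdV-IL4 (adjusted p = 0.247). All 4 Cd80 probe sets were below the array median on all 9 arrays. The brightest, 1451950_a_at, had signals of 108, 94.5 and 103 with AdV-IL4 and 109, 58.8 and 80.5 with AdV-IL4d2, against 53.0, 61.2 and 94.9 with AdV-NULL. With no filter, 0 of the 4 were called for AdV-IL4 against AdV-NULL (lowest adjusted p = 0.483, lowest unadjusted p = 0.148).

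The members called with AdV-IL4 were not all equally secure. Of the 5, Ctla4 and Icos kept their calls in each of the 9 fits with 1 array left out, and 2 members remained called without AdV-IL4 mouse 3, AdV-NULL mouse 1 or AdV-NULL mouse 3, and 3 without AdV-IL4 mouse 2. Without AdV-NULL mouse 1 and AdV-IL4 mouse 2 together, the arrays with the highest and lowest muscle signal, Ctla4 (1.36, adjusted p = 0.0106), Icos (1.15, adjusted p = 0.0197) and Pdcd1lg2 (1.11, adjusted p = 0.0483) were called. Havcr2 (0.69, adjusted p = 0.169) and Cd86 (0.60, adjusted p = 0.126) were not. The muscle sums of the remaining AdV-IL4 and AdV-NULL arrays still did not overlap. Scaling to the bacterial hybridisation controls moved the median of all probe sets by -0.43 for AdV-IL4 against AdV-NULL. For AdV-IL4 against AdV-IL4d2 the median moved by -0.49. Directions given elsewhere rest on the deposited scaling to a common trimmed mean, without that shift, and the values that follow contain it. Under the scaling to hybridisation controls Ctla4 and Icos were still called higher with AdV-IL4, and Cd28 turned to -0.03. For AdV-IL4 against AdV-IL4d2, Cd28 was then called lower (-0.69, adjusted p = 0.0345) and Pdcd1lg2 was not called.

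General T cell markers were set beside the receptors. The mean log2 level of 12 measured T cell markers was 8.06 ± 0.12 with AdV-IL4 and 8.21 ± 0.10 with AdV-IL4d2, against 7.85 ± 0.19 with AdV-NULL (SD, n = 3 each). The difference was 0.21 for AdV-IL4 (exact two-sided permutation p = 0.2) and 0.36 for AdV-IL4d2 (exact p = 0.1, the smallest that 3 against 3 allows). That mean gives equal weight to 2 markers too dim to be tested. Over the 10 tested markers alone the median log2 difference was 0.28 with AdV-IL4 and 0.47 with AdV-IL4d2. Of the 10 tested T cell markers, Cd3g, a chain of the T cell receptor complex, rose with AdV-IL4d2 (0.86, adjusted p = 0.0399), and Lef1, a transcription factor of naive T cells, fell with AdV-IL4 (-0.71, adjusted p = 0.00743). The Cd3g call was lost in 5 of the 9 fits with 1 array left out, those without any AdV-IL4d2 mouse and without AdV-NULL mouse 1 or 3 (at least 0.72 in each of the 9 fits). Set against the mean of the markers, Ctla4 was higher by 1.29 with AdV-IL4 and by 1.09 with AdV-IL4d2 than with AdV-NULL (exact p = 0.1 each), with no overlap between the cytokine and control arrays. Icos so set was higher by 0.87 with AdV-IL4 (exact p = 0.1) and by 0.31 with AdV-IL4d2 (exact p = 0.3). The choice of marker mattered: against Cd3e alone, which varied widely between control mice, these differences were 0.32 and 0.63 for Ctla4 and -0.10 and -0.15 for Icos (exact p between 0.3 and 0.9). The part of T cell number in these results was not tested.

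**Figure D3:**
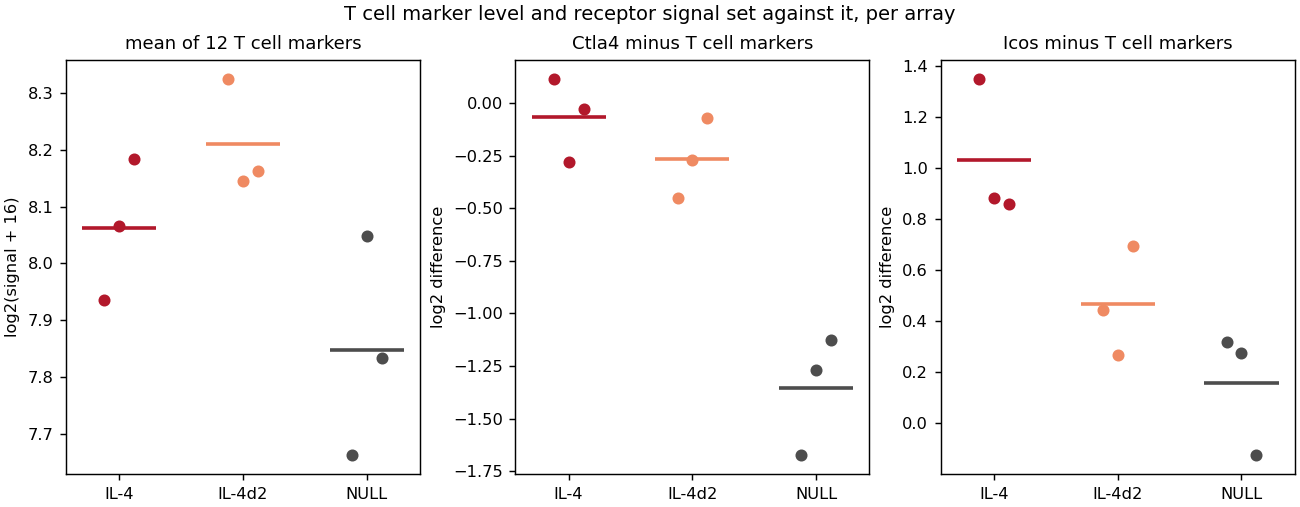
Left, mean log2(signal + 16) of 12 T cell markers on each array. Middle and right, log2(signal + 16) of Ctla4 and of the brightest Icos probe set minus that mean. Points are mice and lines are group means of 3, and Ctla4 set against the markers averages -0.07 with AdV-IL4 and -0.27 with AdV-IL4d2, against -1.36 with AdV-NULL.

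Markers of the T cell subsets that carry these receptors gave few values. Foxp3, the transcription factor of regulatory T cells, averaged 86.0 ± 34.5 with AdV-IL4 and 121 ± 17.7 with AdV-IL4d2, against 114 ± 26.1 with AdV-NULL (SD, n = 3 each), and was too dim to be tested. Of the 5 regulatory T cell genes, 2 were tested, and Ikzf2, which encodes the transcription factor Helios, rose slightly with AdV-IL4 (0.38, adjusted p = 0.0289), a call lost in 5 of the 9 fits with 1 array left out, those without AdV-IL4 mouse 1 or 3 or any AdV-NULL mouse. Ikzf4 did not pass with either form (0.21, adjusted p = 0.548 and 0.27, adjusted p = 0.576). Of the follicular and type 2 helper genes, Bcl6 and Cxcr5 were tested, and neither passed in any comparison. Of 7 tested genes of exhausted and cytotoxic T cells, Entpd1, an ATP-degrading enzyme of the cell surface, rose with AdV-IL4 (0.88, adjusted p = 0.00177), and the granzyme Gzma did not pass (-0.22, adjusted p = 0.339).

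Markers of antigen-presenting cells were set beside the ligands, and their part in the ligand results was not tested. The summed signal of 9 dendritic cell genes ran from 8048 to 9024 with AdV-IL4 and from 4254 to 4919 with AdV-IL4d2, against 3513 to 4475 with AdV-NULL. Of the 8 tested, 4 rose with AdV-IL4 and 1 with AdV-IL4d2, and 3 were higher with AdV-IL4 than with AdV-IL4d2. Of all tested probe sets 5.60%, 0.928% and 0.911% were called higher in these comparisons. Flt3 (0.54, adjusted p = 0.253), Zbtb46 (-0.01, adjusted p = 0.985), Ccr7 (0.43, adjusted p = 0.234) and Cd209a (0.21, adjusted p = 0.351) did not pass with AdV-IL4. The largest term of the sum with AdV-IL4 was Itgax, at a mean of 3157. Itgax, the integrin CD11c, rose with AdV-IL4 (1.59, adjusted p = 0.000103), had a difference of 0.11 with AdV-IL4d2 (adjusted p = 0.815), and was higher with AdV-IL4 than with AdV-IL4d2 (1.48, adjusted p = 0.000920). Cd83, a marker of mature dendritic cells, rose with AdV-IL4 (1.57, adjusted p = 0.000776) and was 1.03 higher than with AdV-IL4d2 (adjusted p = 0.0283). Batf3, a transcription factor of cross-presenting dendritic cells, rose with AdV-IL4 (0.90, adjusted p = 0.0157) and was 1.05 higher than with AdV-IL4d2 (adjusted p = 0.0242). With 1 array left out, Itgax kept its calls in each fit, and the differences between the forms lost theirs in 6 of 9 fits for Cd83, those without any AdV-IL4 or AdV-IL4d2 mouse, and in 5 of 9 for Batf3. The call of Batf3 against AdV-NULL was lost without AdV-IL4 mouse 3 or AdV-NULL mouse 1 (highest adjusted p = 0.0620). Itgae, an integrin of resident T cells and of some dendritic cells, rose with both forms (1.53, adjusted p = 0.000754 and 0.95, adjusted p = 0.0379). Its AdV-IL4d2 call was lost without any AdV-IL4d2 mouse or AdV-NULL mouse 1 or 3. Of 7 macrophage genes 4 rose with AdV-IL4 and 0 were called with AdV-IL4d2. Marco, a scavenger receptor of alveolar macrophages, fell with AdV-IL4 (-2.55, adjusted p = 0.000226). With 1 array left out, Mertk lost its AdV-IL4 call in 8 of 9 fits and Mrc1 in 5, while Cd68, Adgre1 and Marco kept theirs. Cd68, a lysosomal protein of macrophages, rose with AdV-IL4 (1.20, adjusted p = 0.00761). The summed macrophage signal ran from 13445 to 15120 with AdV-IL4 and from 10831 to 11417 with AdV-IL4d2, against 9697 to 12461 with AdV-NULL. The B cell sum of 7 genes ran from 4933 to 5551 with AdV-IL4 and from 4450 to 5091 with AdV-IL4d2, against 2767 to 3826 with AdV-NULL, above the control range with both forms. Of the 7 B cell genes 5 rose with AdV-IL4 and 2 with AdV-IL4d2. Cd72, a coreceptor of B cells, rose with both (1.17, adjusted p = 0.00109 and 1.25, adjusted p = 0.00178). With 1 array left out Cd72 kept both calls, and Ms4a1 lost its AdV-IL4d2 call in 6 of 9 fits.

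The wider families held further calls with AdV-IL4. Among all tested probe sets 5.60% were called higher with AdV-IL4 and 0.928% with AdV-IL4d2. Of 8 other tested receptors related to the CD28 family or to costimulation, 1 rose with AdV-IL4 and 0 with AdV-IL4d2 at an adjusted p under 0.05. Their median log2 differences were 0.27 in both comparisons, against medians of all tested probe sets of -0.0036 and -0.0035. Tnfrsf9, the costimulatory receptor 4-1BB, averaged 405 ± 38.3 with AdV-IL4 and 186 ± 1.57 with AdV-IL4d2, against 184 ± 47.8 with AdV-NULL (SD, n = 3 each). It rose with AdV-IL4 (1.10, adjusted p = 0.00364), had a difference of 0.04 with AdV-IL4d2 (adjusted p = 0.951), and was higher with AdV-IL4 than with AdV-IL4d2 (1.06, adjusted p = 0.0154). The last call was lost without AdV-IL4 mouse 2 or any AdV-IL4d2 mouse (highest adjusted p = 0.0680). Tnfsf9, its ligand, did not pass with AdV-IL4 (0.88, adjusted p = 0.0610). Of 12 other tested genes related to the B7 family or to costimulation, 2 rose with AdV-IL4 and 0 with AdV-IL4d2. Both of the called genes lie outside the B7 family itself. These were Cd40, the receptor through which helper T cells license antigen-presenting cells (0.51, adjusted p = 0.0169), and Lgals3, which encodes the lectin galectin-3 (0.50, adjusted p = 0.0383). The Cd40 call was lost without AdV-IL4 mouse 1 or AdV-NULL mouse 1, and that of Lgals3 in 6 of the 9 fits. Lgals3 was also higher with AdV-IL4 than with AdV-IL4d2 (0.86, adjusted p = 0.00914), and kept that call in each fit. Icosl, the ligand of ICOS, had differences of 0.14 with AdV-IL4 (adjusted p = 0.639) and -0.08 with AdV-IL4d2 (adjusted p = 0.876).

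**Figure D4:**
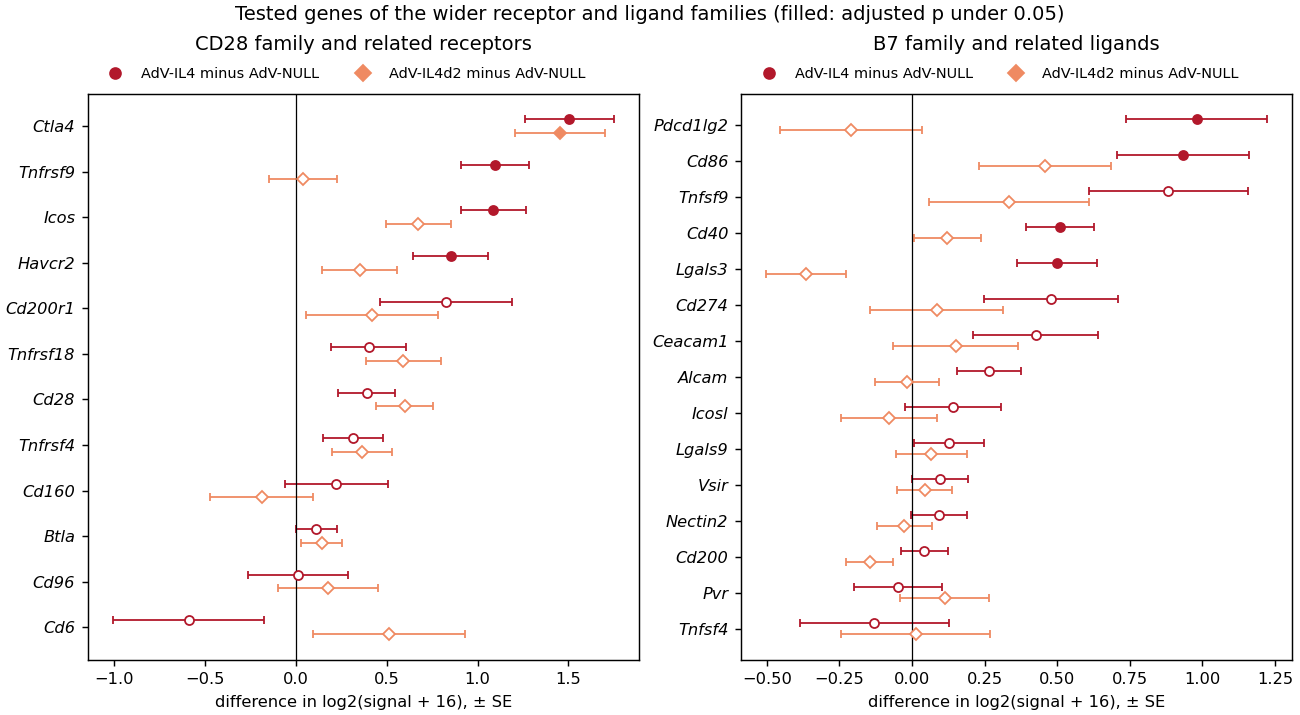
Differences in log2(signal + 16) against AdV-NULL, with standard errors, for tested genes of the receptor list (left) and the ligand list (right). Circles are AdV-IL4, diamonds are AdV-IL4d2, and filled symbols have a limma adjusted p under 0.05. Ctla4 carries the only filled diamond, and Tnfrsf9 and Pdcd1lg2 lie far apart between the cytokine forms.

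Of 15 tested genes that signal below the T cell receptor and CD28, 6 rose with AdV-IL4 and 1 with AdV-IL4d2. Of all tested probe sets 5.60% and 0.928% were called higher in these comparisons. The 6 include Pik3cd (0.50, adjusted p = 0.0309), read by a very bright probe set whose annotation is in doubt, and Lcp2 (0.40, adjusted p = 0.0473), whose call was lost in each of the 9 fits with 1 array left out and which was named after its values were seen. Lat, the adaptor of T cell activation, was called with both, by 0.52 with AdV-IL4 (adjusted p = 0.0486) and 0.76 with AdV-IL4d2 (adjusted p = 0.0318). Ptpn22, a phosphatase that restrains T cell receptor signalling, rose with AdV-IL4 (0.89, adjusted p = 0.0199), as did Ptpn6, which encodes the phosphatase SHP-1 (0.59, adjusted p = 0.0231). With 1 array left out Lat lost its AdV-IL4 call in 8 of 9 fits and its AdV-IL4d2 call in 5, and Ptpn22 and Ptpn6 lost theirs in 2 and 4. The genes whose centred log2 profile over the 9 arrays lay nearest to that of Ctla4, among 11983 compared, were Izumo1r, Cd72 and Cxcl10, with root mean square differences of 0.187, 0.201 and 0.215 where the median gene had 0.760. Izumo1r, which encodes a folate receptor relative found in mouse on regulatory T cells, averaged 207 with AdV-IL4 and 171 with AdV-IL4d2, against 60.7 with AdV-NULL. The nearest to the brightest Icos probe set were Batf, a transcription factor of activated lymphocytes, Gclc, an enzyme of glutathione synthesis, and Rassf2, at 0.144, 0.154 and 0.172, where the median gene had 0.529. Batf averaged 487 with AdV-IL4 and 361 with AdV-IL4d2, against 224 with AdV-NULL.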

How the data were processed

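Each deposited file column holds 1 array's signal intensity per probe set, not log-transformed. Per the submitters' processing notes, Affymetrix Expression Console 2.0, MAS5 and GCOS were used, with no role given for each. The 2% trimmed mean was 500.002 on the arrays, so a shift of most transcripts together would be scaled away. Detection calls were not used here, and the number of arrays limits the precision. Gene names came from the platform annotation (34958 probe sets with 1 symbol).

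Signals were taken as log2(signal + 16), which understates changes of dim genes. Probe sets above their array's median on at least 3 of 9 arrays were tested, 23824 in all, without 64 control probe sets. All arrays entered 1 limma 3.58.1 model without covariates (lmFit, eBayes with trend, two-sided; R 4.3.3), tested on simulated data, with Benjamini-Hochberg adjustment per comparison. A gene's brightest probe set stood for it in counts. Named genes were the members, Il4, up to 4 called genes of each list (the 2 brightest where under 2 were called) and the 3 nearest profiles of the 2 members with the largest F statistic. Foxp3, Icosl, Tnfsf9, Cd3e, Flt3, Zbtb46, Ccr7, Cd209a and Mertk fall outside that rule and were named after their values were seen. Members and lists were chosen with earlier results of these data known. Alternatives covered the pseudocount, filter, normalization, variance trend, arrays fitted, replicate block, left-out arrays and probe set.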

Additional observations from a re-analysis of the deposited data

Results flagged for a closer look

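Of the 7 genes tested, Pdcd1lg2 was the only one for which AdV-IL4 and AdV-IL4d2 differed by a test of the difference itself, with a log2 difference of 1.19 for AdV-IL4 minus AdV-IL4d2 (limma adjusted p = 0.0324). It was 285 ± 72.3 with AdV-IL4 and 115 ± 23.0 with AdV-IL4d2, with 134 ± 17.6 in AdV-NULL lungs (SD, n = 3 each). The direction was the same in each fit run, and the call was lost in 5 of the 9 fits with 1 array left out. Pdcd1lg2 passed the filter only on the 3 AdV-IL4 arrays, and with no filter none of the 10 genes was called between the forms (Pdcd1lg2 adjusted p = 0.0659). Scaling to hybridisation controls also ended the call (0.72, adjusted p = 0.0673).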

How the results depend on the processing

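The number of members called was 5 for AdV-IL4 against AdV-NULL, 1 for AdV-IL4d2 against AdV-NULL and 1 for AdV-IL4 against AdV-IL4d2, and the calls over all probe sets were 2546, 314 and 416. With 1 array left out the members called ranged from 2 to 5, from 0 to 2 and from 0 to 1, and the probe sets from 1313 to 2210, from 156 to 417 and from 110 to 446. Requiring signals above the array median on all 9 arrays left 1, 0 and 0 members called, since it removes most members. Scaling to hybridisation controls gave 2 members for AdV-IL4 against AdV-NULL, and 7010 and 8461 probe sets in the comparisons that hold AdV-IL4, most of them lower. Under it Cd28 turned to -0.029 for AdV-IL4 against AdV-NULL, and for AdV-IL4 against AdV-IL4d2 Ctla4 turned to -0.42, Icos to -0.075, Cd274 to -0.092 and Cd86 to -0.0072, Cd28 was called lower (-0.69, adjusted p = 0.0345), and Pdcd1lg2 lost its call (0.72, adjusted p = 0.0673). Without AdV-NULL mouse 1 and AdV-IL4 mouse 2 together, 3 members were called for AdV-IL4 against AdV-NULL, with 1068, 200 and 237 probe sets. No filter gave 0 members and 244 probe sets for AdV-IL4 against AdV-IL4d2. eBayes without trend gave 195 and 165 probe sets in the comparisons that hold AdV-IL4d2. With the second brightest probe set 2 members were called for AdV-IL4d2 against AdV-NULL, and AdV-IL4 minus AdV-IL4d2 turned to 0.40 for Cd28 and to -0.35 for Cd86. Cd274 for AdV-IL4d2 against AdV-NULL was -0.050 without AdV-NULL mouse 1, alone or with AdV-IL4 mouse 2, and -0.0004 without AdV-NULL mouse 3, and ranged from -0.050 to 0.31 with 1 array left out. Ctla4 for AdV-IL4 against AdV-IL4d2 was -0.028 without AdV-IL4 mouse 3, and ranged up to 0.16 with 1 array left out. Set against Cd3e alone in place of the T cell list, Icos turned to -0.10 and -0.15, Cd28 to -0.79 and -0.23 with AdV-IL4 and AdV-IL4d2, and Pdcd1, Havcr2 and Lag3 to -0.79, -0.33 and -0.73 with AdV-IL4. Where no cause is named, the cause was not tested.

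With the mouse number as a replicate block, 5, 1 and 1 members and 2427, 312 and 384 probe sets were called, and the F test over the 3 groups called 4 members with it and 3 without. Same-numbered mice correlated between -0.069 and 0.116 in their deviations, and 2 of 9 arrays correlated best with their own number in both other groups. No pairing by number was thus seen, though so few arrays cannot exclude one. Between pairs of groups the block changed no call of a brightest probe set, and Cd28 on 1437025_at lost its call (adjusted p = 0.0573).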
